A study of Homo sapiens with 11 samples.

Results

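The genes described here are the nuclear genes for the subunits of the mitochondrial respiratory chain and ATP synthase. They were taken from the count table by gene symbol, keeping protein-coding genes: the NDUFA, NDUFB, NDUFC, NDUFS and NDUFV genes of complex I, SDHA to SDHD of complex II, the UQCR genes and CYC1 of complex III, the numbered COX subunits of complex IV, and the ATP5F1, ATP5M and ATP5P genes of complex V. This rule, which used no measured value but was set with earlier results of these data known, gave 90 genes of 60676 in the table. There were 37 genes of complex I, 4 of complex II, 10 of complex III, 19 of complex IV and 18 of complex V, and 2 readthrough genes (ATP5MF-PTCD1 and NDUFC2-KCTD14). NDUFA4 and NDUFA4L2, which carry complex I names, were counted with complex IV, where the NDUFA4 protein is found. Of the 90 genes, 82 had enough counts to be tested, and the 8 that did not were COX4I2, COX6A2, COX7A1, COX7B2, COX8C, ATP5MGL and both readthrough genes.

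RNA was measured in RWPE1 cells, an immortalized, non-tumorigenic line of human prostate epithelium, before and during culture in 1% O2. There were 3 hypoxic groups, with 3 libraries at 6 h, 3 at 12 h and 2 at 24 h, and the normoxic group (0 h) had 3 libraries, while the last of the 24 h triplicate was not analysed here. The hypoxic medium also received 10 mM HEPES, so oxygen and buffer cannot be told apart. All groups are the same cell line, nothing states that replicates came from separate cultures, and p-values therefore measure only the spread between these libraries.

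The respiratory chain passes electrons from NADH (complex I) and succinate (complex II) through ubiquinone to complex III, then through cytochrome c to complex IV, where oxygen is reduced to water. Complexes I, III and IV pump protons, and complex V, the ATP synthase, uses the proton gradient to make ATP. Complexes I, III, IV and V each combine nuclear subunits with subunits encoded by mitochondrial DNA, whereas complex II is wholly nuclear. In low oxygen, hypoxia-inducible factors (HIF) are known to change the makeup of the chain in several cell types, among other ways through COX4I2, an isoform that can replace COX4I1, and NDUFA4L2, a relative of NDUFA4.

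Promoter sequence was available from RefSeq (GRCh38.p14) for 72 of the 90 genes, as the 250 bases before and 50 bases after the transcription start, and 4 motifs were searched on both strands. They were the core of the HIF response element (ACGTG or GCGTG), an ETS motif of the kind bound by GABPA (CCGGAAG), the NRF1 motif (GCGCATGCG) and a YY1 motif (AAGATGGCG). The HIF core was present in 43 of the 72 windows (59.7%), against 55.9% of 15843 windows of protein-coding genes. The ETS motif was present in 20 (27.8% against 14.2%), the NRF1 motif in 10 (13.9% against 2.76%) and the YY1 motif in 8 (11.1% against 2.74%). The NRF1 motif was found in NDUFA8, NDUFB4, NDUFS6, NDUFS7, SDHD, COX6A1, ATP5F1C, ATP5MC2, ATP5ME and ATP5PF. A match describes letters in a window and not binding, and the motifs can overlap each other.

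The windows upstream of 5 genes are shown, those of COX6A1, which had the largest log2 fold change at 24 h, of ATP5MK, which had the largest at 6 h, of NDUFS1, which fell at every time, and of the pair NDUFA4 and NDUFA4L2. Each runs 5′ to 3′ on the strand of its gene and ends at the base before the transcription start, with matches to the 4 motifs on either strand in capitals. They lie at chr12:120437863-120438112 (+) for COX6A1, chr10:103396476-103396725 (-) for ATP5MK, chr2:206159445-206159694 (-) for NDUFS1, chr7:10940154-10940403 (-) for NDUFA4 and chr12:57240763-57241012 (-) for NDUFA4L2.
COX6A1: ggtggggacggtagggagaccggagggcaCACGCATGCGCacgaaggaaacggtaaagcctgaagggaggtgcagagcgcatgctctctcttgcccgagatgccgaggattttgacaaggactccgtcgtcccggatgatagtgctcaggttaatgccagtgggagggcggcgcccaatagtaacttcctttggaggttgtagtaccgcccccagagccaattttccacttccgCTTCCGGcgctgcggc
ATP5MK: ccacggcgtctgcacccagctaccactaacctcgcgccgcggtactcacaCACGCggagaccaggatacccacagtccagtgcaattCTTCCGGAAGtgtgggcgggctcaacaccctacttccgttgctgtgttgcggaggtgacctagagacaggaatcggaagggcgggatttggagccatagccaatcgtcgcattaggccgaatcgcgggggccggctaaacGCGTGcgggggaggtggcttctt
NDUFS1: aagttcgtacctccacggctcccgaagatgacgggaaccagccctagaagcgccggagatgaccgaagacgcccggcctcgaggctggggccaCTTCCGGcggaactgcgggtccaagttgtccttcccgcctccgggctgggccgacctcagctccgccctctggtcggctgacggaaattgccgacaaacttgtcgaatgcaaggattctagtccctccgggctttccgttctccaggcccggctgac
NDUFA4: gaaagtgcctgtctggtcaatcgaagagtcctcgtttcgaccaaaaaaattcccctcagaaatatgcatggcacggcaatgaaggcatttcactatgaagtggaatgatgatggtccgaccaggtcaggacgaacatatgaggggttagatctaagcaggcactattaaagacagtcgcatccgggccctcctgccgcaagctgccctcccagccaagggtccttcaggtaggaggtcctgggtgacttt
NDUFA4L2: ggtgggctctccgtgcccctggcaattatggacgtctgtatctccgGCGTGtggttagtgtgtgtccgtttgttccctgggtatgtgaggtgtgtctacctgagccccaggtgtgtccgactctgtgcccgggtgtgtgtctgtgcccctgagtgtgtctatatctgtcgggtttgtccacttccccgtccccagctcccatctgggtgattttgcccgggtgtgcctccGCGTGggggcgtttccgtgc
The COX6A1 window held 1 HIF core that overlaps its NRF1 motif, and 1 ETS motif. The ATP5MK window held 2 HIF cores and 2 ETS motifs, the latter overlapping each other on opposite strands. The NDUFS1 window held 1 ETS motif, the NDUFA4 window none of the 4, and the NDUFA4L2 window 2 HIF cores.

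Libraries held 27496009 to 49488345 counts. The TMM scaling factor fell from 1.29 to 1.32 at 0 h to 0.851 and 0.539 in the 24 h libraries, and 24 h replicate 2 stood apart from the others, also in how its values ran with gene length (correlation of its deviations with log2 length -0.295, against -0.108 to 0.182 in the other libraries). With library size alone as the scale, the median over all 19981 tested genes moved by -0.32, -0.50 and -0.97 (log2) at 6, 12 and 24 h, so directions that flip on that scale are given where they occur. The cells had the keratins of basal prostate epithelium, with summed CPM (the counts of a gene relative to the TMM-scaled size of its library) for the prostate epithelial markers of 7949 to 10677 at 0 h and 11524 to 22186 in hypoxia. Markers of luminal cells were mixed. KLK3 had 0 counts in all 11 libraries, whereas the keratin KRT8 rose by 1.43, 1.72 and 2.59 and KRT18 by 1.63, 1.92 and 2.48 (log2) at 6, 12 and 24 h, and the basal factor TP63 fell by 1.72, 0.95 and 1.50. Their part in the results was not tested. Muscle and pericyte markers (MYH7 at 0 in all libraries) summed to 2.02 to 5.84 CPM, fibroblast markers to 27.9 to 60.6 and leukocyte and endothelial markers to 0.0683 to 0.649. In these bulk libraries fewer cells of a type and less RNA per cell cannot be told apart.

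The question was how the transcripts of each complex moved with time in hypoxia. By edgeR's quasi-likelihood test at an adjusted p under 0.05, 29 of the 82 tested subunit genes were higher and 5 lower at 6 h than at 0 h. Over all tested genes, 25.1% were higher and 27.7% lower. At 12 h, 45 were higher and 5 lower (24.2% and 27.1% of all genes), and at 24 h 72 were higher and 2 lower (29.9% and 31.3% of all genes). The median log2 fold change of the subunit genes was 0.44, 0.57 and 1.60 at 6, 12 and 24 h, while the median of all genes was -0.002, -0.03 and -0.06. With library size as the scale, 5, 15 and 43 were higher and 11, 11 and 9 lower. On that scale 13.6%, 10.6% and 11.1% of all genes were higher and 35.7%, 42.3% and 56.6% lower. The subunit median then stood 0.44, 0.60 and 1.53 above that of all genes. Without 24 h replicate 2 the median at 24 h was 0.99 for the subunit genes and -0.10 for all genes. The count of higher subunit genes at 6 h was 16, 11 and 19 without 0 h replicate 1, 2 and 3, beside 20.3%, 20.6% and 20.5% of all genes. At 12 h it was 29 without 0 h replicate 2, beside 19.4% of all genes.

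Between neighbouring times of hypoxia, more genes were called from 12 h to 24 h than from 6 h to 12 h. No subunit gene was called between 6 h and 12 h, where edgeR called 1.88% of all genes higher and 3.07% lower. At an unadjusted p under 0.05, 3 were higher and none lower, DESeq2 called 1 higher, and limma-voom called none. From 12 h to 24 h, 70 of 82 rose and 0 fell (15.1% and 13.3% of all genes), with a median log2 fold change of 0.97. At an unadjusted p under 0.05, 71 were higher and 1 lower. Without 24 h replicate 2 the median was 0.44, and from 0 h to 6 h, with all libraries, it was also 0.44. Without 12 h replicate 2, 44 were higher, where 7.45% of all genes were. A fit of the 12 h and 24 h groups alone called no subunit gene and 0% of all genes, with a subunit median of 0.94. Of the 82 genes, 29 were higher at each of the 3 times, NDUFS1 was lower at each, none went from lower at 6 h to higher at 24 h or the reverse, and 5 were not called at any time (NDUFS7, SDHA, SDHC, COX6B2 and NDUFA4L2).

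**Figure D1:**
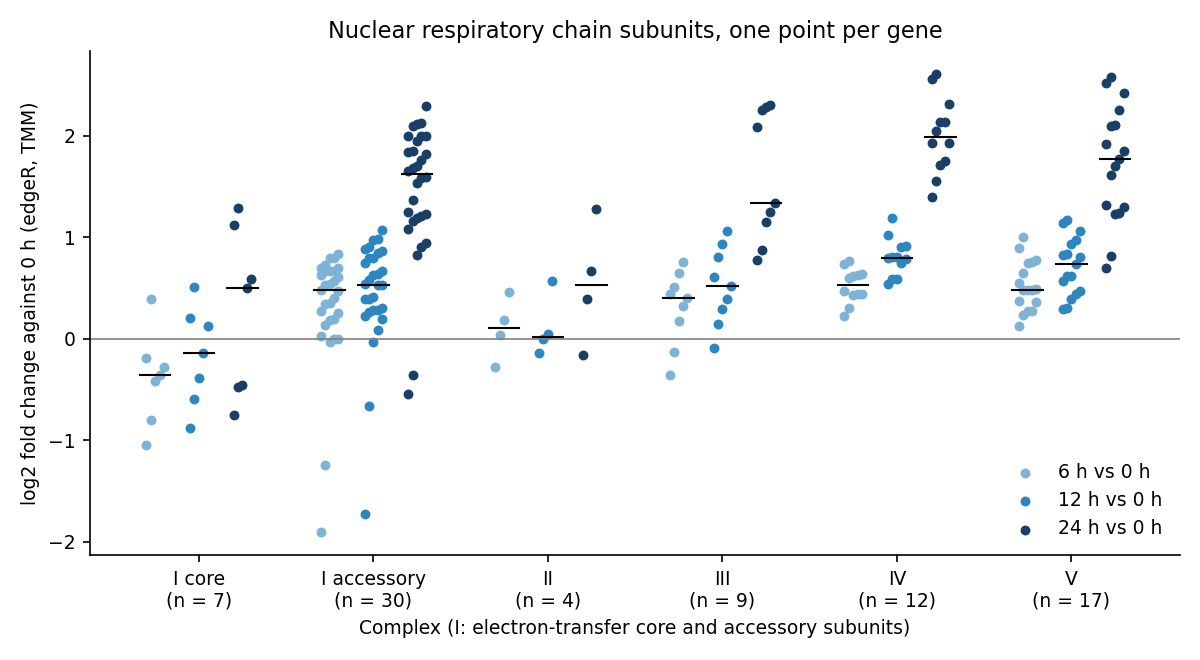
Log2 fold change against 0 h (y axis) of the 79 subunit genes that are not tissue isoforms, near-identical copies or readthrough genes, by complex (x axis) and time (shade), each point 1 gene and each bar the median. The electron-transfer core of complex I lies at -0.35, -0.14 and 0.50, and at 24 h the medians are 1.62 for the accessory genes of complex I, 0.53 for II, 1.34 for III, 1.99 for IV and 1.77 for V.

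All genes called lower belonged to complex I, among them NDUFA7, NDUFV2 and NDUFV3 at 6 and 12 h and NDUFS1 at each time. Of its 37 genes, 12, 16 and 31 were higher at 6, 12 and 24 h and 5, 5 and 2 were lower, with median log2 fold changes of 0.36, 0.42 and 1.37. Over all tested genes, 25.1%, 24.2% and 29.9% were higher and 27.7%, 27.1% and 31.3% lower. The 7 nuclear core subunits of complex I, which hold the flavin and the iron-sulfur clusters that carry electrons from NADH, stood apart from the accessory ones. None, 1 and 3 of the 7 were higher and 3, 3 and 2 lower, with medians of -0.35, -0.14 and 0.50. Among the 30 accessory genes 12, 15 and 28 were higher and 2, 2 and 0 lower, with medians of 0.48, 0.53 and 1.62. With library size as the scale, the core median was -0.68, -0.61 and -0.49, so it turned negative at 24 h, and the accessory median was 0.16, 0.06 and 0.56. Without 24 h replicate 2 the core median at 24 h was -0.11 and the accessory median 0.83. The core genes have 630 (NDUFS8) to 2181 (NDUFS1) coding bases. Most accessory genes have fewer than 630, though NDUFV3 has 1419. The part of coding length in the contrast of core and accessory genes was not tested. NDUFS1, NDUFS3, NDUFS7, NDUFS8 and NDUFV1 were named after their values were seen.

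NDUFS1 (chromosome 2, 206114817 to 206159509 on GRCh38) encodes the largest iron-sulfur subunit of complex I. It stood at 112, 118.7 and 107.1 CPM at 0 h, at 84.32, 89.41 and 90.33 at 6 h, at 85.58, 82.41 and 90.3 at 12 h and at 76.76 and 57.33 at 24 h. Every hypoxic library was below every normoxic one. Its log2 fold change was -0.35 ± 0.13 (SE, adjusted p = 0.0379) at 6 h, -0.39 ± 0.13 (adjusted p = 0.0269) at 12 h and -0.75 ± 0.15 (adjusted p = 0.00101) at 24 h. The calls at 6 and 12 h were lost when any single 0 h library was left out, with adjusted p from 0.0524 to 0.121.

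The flavoprotein genes, whose products take electrons from NADH, differed from each other. NDUFV2 was low throughout, at 2.773, 2.639 and 2.404 CPM at 0 h, 1.162, 1.168 and 1.422 at 6 h, 1.556, 1.363 and 1.325 at 12 h and 2.439 and 1.253 at 24 h. It fell at 6 h (log2 fold change -1.05 ± 0.25, adjusted p = 0.0034) and 12 h (-0.88, adjusted p = 0.00956), and was not called at 24 h (-0.48, adjusted p = 0.157). Of its exonic bases, 28.44% are shared with another gene on the same strand. NDUFV3, a small subunit beside them, was at 26.71, 24.84 and 27.17 CPM at 0 h and 11.14, 11.51 and 10.69 at 6 h, a change of -1.24 ± 0.17 (log2, adjusted p = 9.26e-05). Its 24 h libraries were at 15.45 and 25.61 CPM, the second of them between the 0 h values (adjusted p = 0.127). NDUFV1, which binds NADH, was at 120.5, 107.1 and 118.1 CPM at 0 h. Every 6 h and 12 h library lay below these values, but NDUFV1 was not called lower at either time. At 24 h it was at 126.2 and 200 CPM, a log2 fold change of 0.50 ± 0.19 (adjusted p = 0.0343). That rise became -0.49 with library size as the scale and 0.12 (adjusted p = 0.538) without 24 h replicate 2. NDUFS3 and NDUFS8 were higher at 24 h, by 1.29 ± 0.20 (adjusted p = 0.000175) and 1.12 ± 0.27 (adjusted p = 0.00338) on the log2 scale, and the latter was 0.37 (adjusted p = 0.11) without 24 h replicate 2. NDUFS7 was not called, with -0.19, 0.13 and 0.59 at the 3 times.

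Among the accessory genes, the NDUFB genes of the membrane arm moved most evenly. Of 11, 6 were higher at 6 h, 6 at 12 h and 11 at 24 h and none was lower, with medians of 0.54, 0.67 and 1.85. The shares of all genes were 25.1%, 24.2% and 29.9% higher and 27.7%, 27.1% and 31.3% lower. NDUFB11, a membrane arm subunit, was at 26.87, 26.92 and 25.66 CPM at 0 h, 36.08, 46.25 and 43.99 at 6 h, 60.65, 54.76 and 51.74 at 12 h and 77.53 and 182.6 at 24 h. The groups did not overlap at any time, and the 24 h libraries differed more from each other than the libraries of any other group did. Its log2 fold changes were 0.67 (adjusted p = 0.0314), 1.07 (adjusted p = 0.00276) and 2.29 ± 0.26 (adjusted p = 1.57e-05). NDUFB1 changed late. It was at 21.03, 19.46 and 21.45 CPM at 0 h, 20.23, 23.68 and 26.69 at 6 h, 30.34, 22.17 and 24.19 at 12 h and 41.67 and 123.9 at 24 h, and its log2 fold change from 12 h to 24 h was 1.69 ± 0.32 (adjusted p = 0.00379). NDUFB8 rose by 1.56 ± 0.26 (log2, adjusted p = 0.00228) over the same interval, with 33.77% of its exonic bases shared with another gene on the same strand.

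The NDUFA genes counted with complex I numbered 13, of which 4, 6 and 12 were higher and 1, 1 and 0 lower. Beside them, 25.1%, 24.2% and 29.9% of all genes were higher and 27.7%, 27.1% and 31.3% lower. NDUFA7 had few counts. It was at 0.439, 0.6131 and 0.553 CPM at 0 h, 0.1025, 0.1297 and 0.1706 at 6 h, 0.2368, 0.05927 and 0.1828 at 12 h and 0.2567 and 0.4905 at 24 h. It was lower at 6 h (log2 fold change -1.91 ± 0.43, adjusted p = 0.00262) and 12 h (-1.73 ± 0.42, adjusted p = 0.00491) and not called at 24 h (-0.55, adjusted p = 0.33), on few counts, with 32.47% of its exonic bases shared with another gene on the same strand. NDUFA10 had the smallest called change from 12 h to 24 h, 0.44 ± 0.14 (log2, adjusted p = 0.031), and turned to -0.03 with library size as the scale. NDUFS5 and NDUFS6, accessory genes despite their names, were at the top. NDUFS5 was at 50.37, 40.12 and 51.38 CPM at 0 h, 86.51, 82.41 and 77.41 at 6 h, 103.1, 86.53 and 91.06 at 12 h and 127.2 and 250 at 24 h. Its log2 fold changes were 0.80 (adjusted p = 0.00646), 0.98 (adjusted p = 0.00199) and 1.99 (adjusted p = 1.57e-05). NDUFS6 changed by 0.67 (adjusted p = 0.056), 0.97 (adjusted p = 0.0111) and 2.12 (adjusted p = 7.88e-05) on the same scale.

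Complex II, which is also succinate dehydrogenase of the citric acid cycle, changed least. Only SDHB, its iron-sulfur subunit, was called at 6 h and 12 h, and SDHB and SDHD, a membrane anchor, at 24 h, with median log2 fold changes of 0.11, 0.02 and 0.53 over the 4 genes that became -0.21, -0.45 and -0.46 with library size as the scale. SDHB was at 61.86, 61.36 and 63.62 CPM at 0 h, 88.19, 88.57 and 80.04 at 6 h, 96, 90.35 and 90.78 at 12 h and 130.8 and 171.2 at 24 h. The 4 groups were separate and in the order of time. Its log2 fold change was 0.46 ± 0.13 (adjusted p = 0.00966), 0.57 (adjusted p = 0.00302) and 1.28 ± 0.14 (adjusted p = 1.23e-05). SDHC, the other membrane anchor, was at 77.83, 72.95 and 72.54 CPM at 0 h and 66.32 and 67.31 at 24 h, with 71.03 to 83.47 at 6 and 12 h (log2 fold change at 24 h -0.16, adjusted p = 0.321). SDHA, the flavoprotein, was at 14.47, 15.19 and 15.65 CPM at 0 h and 16.52 and 23.05 at 24 h. Its log2 fold change at 24 h of 0.39 (adjusted p = 0.0546) became -0.58 (adjusted p = 0.00674) with library size as the scale, and its counts are uncertain because the genome holds 4 pseudogenes of it. SDHD was at 37.39, 30.87 and 35.08 CPM at 0 h, at 24.58 to 34.5 at 6 and 12 h and at 38.94 and 70.85 at 24 h. Its call at 24 h (0.67, adjusted p = 0.0174) turned to -0.34 with library size as the scale and to 0.16 (adjusted p = 0.423) without 24 h replicate 2.

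In complex III 4, 5 and 10 of 10 genes were higher and none lower at 6, 12 and 24 h, with medians of 0.42, 0.57 and 1.68, the last 1.34 without the near-identical copy UQCRHL. The shares of all genes were 25.1%, 24.2% and 29.9% higher and 27.7%, 27.1% and 31.3% lower. The 2 genes for subunits that carry a redox group, CYC1 (cytochrome c1) and UQCRFS1 (the Rieske iron-sulfur protein), were called at 24 h and not earlier. CYC1 was at 151.7, 139 and 161.5 CPM at 0 h, 126.4, 155.6 and 131.7 at 6 h, 175.8, 148.1 and 175.1 at 12 h and 214.7 and 504.3 at 24 h. Only the 24 h libraries stood clear of 0 h, with a log2 fold change of 1.25 (adjusted p = 0.00134). UQCRFS1 was at 53.36, 47.47 and 52.25 CPM at 0 h, 39.74, 40.12 and 39.73 at 6 h, 47.46, 48.3 and 48.2 at 12 h and 51.51 and 124 at 24 h. The 6 h libraries lay below all 0 h libraries (log2 fold change -0.36, adjusted p = 0.211, and -0.38 with 0.00165 without 24 h replicate 2), and at 24 h replicate 1 lay among the 0 h values and replicate 2 far above them. The call at 24 h (0.78 ± 0.26, adjusted p = 0.018) became -0.27 with library size as the scale and -0.0018 without 24 h replicate 2.

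UQCRC2, a core protein of complex III, was at 168.6, 155.2 and 161.1 CPM at 0 h and 283.3 and 311.6 at 24 h, a log2 fold change of 0.88 (adjusted p = 0.00023) that turned to -0.05 with library size as the scale. The small subunits around the core moved more. UQCRB was at 75.93, 75.11 and 74.95 CPM at 0 h, 127.9, 102 and 125 at 6 h, 181.2, 122.8 and 128.9 at 12 h and 287.5 and 431.6 at 24 h. Its log2 fold changes were 0.65 (adjusted p = 0.011), 0.94 (adjusted p = 0.0014) and 2.25 ± 0.21 (adjusted p = 3.72e-06). UQCRQ, which lies beside it, changed by 0.51 (adjusted p = 0.0836), 0.81 (adjusted p = 0.0126) and 2.30 (adjusted p = 1.42e-05), and UQCR11 by 2.09 (adjusted p = 0.000103) at 24 h. UQCRH, the hinge protein, rose by 0.75, 1.07 and 2.28 and its near-identical copy UQCRHL by 0.69, 1.07 and 2.02 (log2), but reads of one may have been counted for the other.

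Complex IV had medians of 0.46, 0.79 and 1.93, the last 2 the largest of the 5 complexes, with 4, 11 and 12 of 14 tested genes higher and none lower. Over all tested genes, 25.1%, 24.2% and 29.9% were higher and 27.7%, 27.1% and 31.3% lower. COX6A1 (chromosome 12, 120438090 to 120440737), a small subunit with a tissue-specific relative in muscle, was at 41.59, 42.67 and 45.2 CPM at 0 h, 75.13, 72.13 and 72.59 at 6 h, 111.6, 87.74 and 97.09 at 12 h and 147.4 and 380.4 at 24 h. The 4 groups were separate and in the order of time. Its log2 fold changes were 0.76 (adjusted p = 0.0226), 1.20 (adjusted p = 0.00206) and 2.61 ± 0.28 (adjusted p = 1.01e-05). At 24 h the change was 1.76 without replicate 2 of that group. COX7B, another small subunit, changed by 0.74 (adjusted p = 0.0337), 0.92 (adjusted p = 0.013) and 2.56 (adjusted p = 1.75e-05), and from 12 h to 24 h by 1.64 ± 0.29 (adjusted p = 0.00292). At the lower end, COX5A and COX5B, which sit on the matrix side, changed by 1.56 and 1.75 (log2) at 24 h, and COX7A2L, a factor that joins complexes III and IV, by 1.71. COX7A2L was not called at 6 h (0.23, adjusted p = 0.46) or 12 h (0.59, adjusted p = 0.0627). COX6C, whose counts are uncertain because 17 pseudogenes carry its name, changed by 0.63, 0.80 and 1.93 and COX7C by 0.48, 0.75 and 2.04 (log2), the latter not called at 6 h (adjusted p = 0.0983).

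The isoform pairs of complex IV were compared within each library, where the ratio does not depend on scaling. The common member of each pair was higher at 24 h, whereas COX4I2 was at or near 0 counts and NDUFA4L2 was not called at any time. COX4I1 was at 169.9, 158.8 and 185.8 CPM at 0 h, 226.3, 239.3 and 232.9 at 6 h, 336.5, 273 and 287.6 at 12 h and 506.5 and 997.4 at 24 h. Its log2 fold changes were 0.44 ± 0.21 (adjusted p = 0.0916), 0.80 (adjusted p = 0.00682) and 2.13 ± 0.23 (adjusted p = 1.03e-05). COX4I2 (chromosome 20, 31637912 to 31645006) had 0, 0 and 0 counts at 0 h, 0, 1 and 2 at 6 h, 1, 0 and 0 at 12 h and 0 and 0 at 24 h. A rise from 0 to under 3 counts per library was not detectable at this depth, and no fold is given.

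NDUFA4, a subunit of complex IV, was at 50.79, 43.58 and 49.17 CPM at 0 h, 75.1, 73.55 and 72.33 at 6 h, 95.66, 74.94 and 78.08 at 12 h and 109.3 and 255.7 at 24 h, with log2 fold changes of 0.62 (adjusted p = 0.0416), 0.79 (adjusted p = 0.0143) and 1.93 ± 0.26 (adjusted p = 5.1e-05). NDUFA4L2 (chromosome 12, 57234903 to 57240715) was at 1.964, 3.012 and 2.26 CPM at 0 h, 1.435, 1.686 and 2.35 at 6 h, 2.571, 1.985 and 2.239 at 12 h and 2.653 and 4.632 at 24 h. Those values rest on 42 to 124 counts per library, and each hypoxic group overlapped the 0 h range, 24 h replicate 2 alone lying above it. Its log2 fold change was -0.38 ± 0.28 (adjusted p = 0.257), -0.09 ± 0.27 (adjusted p = 0.802) and 0.59 ± 0.31 (adjusted p = 0.112). At 6 h it was -0.70 (adjusted p = 0.0351) with library size as the scale. At 24 h it ran from 0.13 without 24 h replicate 2 to 0.89 (adjusted p = 0.0261) without 24 h replicate 1. As a share of the counts of both genes, NDUFA4L2 was 3.72% to 6.46% at 0 h, 1.88% to 3.15% at 6 h, 2.58% to 2.79% at 12 h and 2.37% and 1.78% at 24 h. Per kilobase of exonic length at 0 h, NDUFA4 had 13.8 CPM and NDUFA4L2 0.861.

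**Figure D2:**
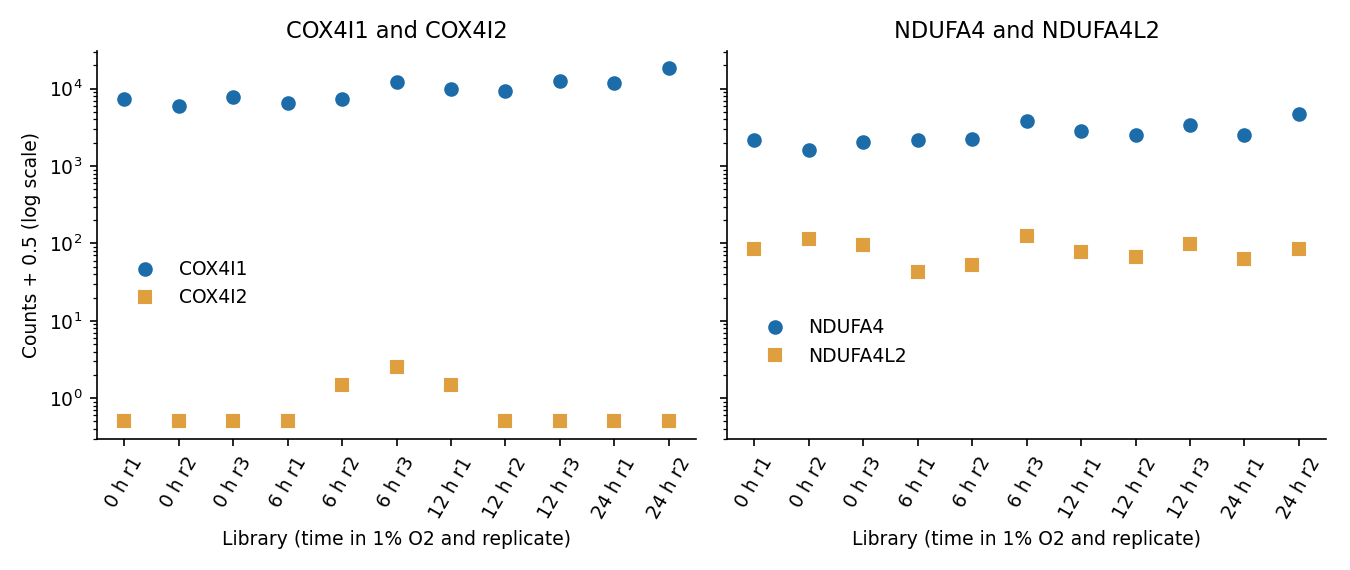
Counts plus 0.5 (log axis) of COX4I1 with COX4I2 (left) and NDUFA4 with NDUFA4L2 (right) in each of the 11 libraries, ordered by hours in 1% O2 and replicate (x axis). The counts are not scaled for depth, COX4I2 has at most 2 in a library and NDUFA4L2 has 42 to 124, below its partner in every library.

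The other isoforms of complex IV known from muscle, testis or other tissues were low or absent. COX6A2, COX7A1 and COX8C were each below 0.2 CPM in every library, and COX7B2 had 0 counts in all 11, which allows up to 3 counts in a library. COX6B2 was at 0.6239, 0.5064 and 0.8416 CPM at 0 h and 0.4707 and 0.2725 at 24 h, and was not called (log2 fold change at 24 h -0.79 ± 0.50, adjusted p = 0.183). Its common partner COX6B1 was at 73.18, 66.66 and 73.82 CPM at 0 h and 206.8 and 499.4 at 24 h, a log2 fold change of 2.31 ± 0.27 (adjusted p = 1.66e-05). COX8A, the partner of COX8C, changed by 1.40 ± 0.23 (adjusted p = 0.000228) at 24 h.

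In complex V, all 17 tested genes were higher at 24 h, with 8 and 12 at 6 and 12 h and none lower, and medians of 0.48, 0.73 and 1.77. At 6, 12 and 24 h, 25.1%, 24.2% and 29.9% of all genes were higher and 27.7%, 27.1% and 31.3% lower. By position in the enzyme, the 5 genes of the catalytic F1 head had a median of 1.30 at 24 h, the 3 genes of the proton-carrying c ring 1.77, the 4 of the peripheral stalk 1.47 and the 5 of the membrane and dimer contacts 2.25. ATP5F1B, the catalytic beta subunit, had the highest level per exonic length of all subunit genes at 0 h (237 CPM per kilobase). It was at 559.9, 499.9 and 532.6 CPM at 0 h, 765.2, 799.8 and 675 at 6 h, 792.8, 764.1 and 802.8 at 12 h and 862.7 and 858 at 24 h. Its rise was early and then small, and both 24 h libraries gave nearly the same value. The log2 fold change was 0.49 ± 0.14 (adjusted p = 0.0107), 0.57 (adjusted p = 0.00519) and 0.70 ± 0.16 (adjusted p = 0.00195), that from 12 h to 24 h was 0.13 (adjusted p = 0.563), and with library size as the scale the value at 24 h turned to -0.22. ATP5F1A, the alpha subunit of the same head, was at 159.9, 147.5 and 158.8 CPM at 0 h and 241 and 306.1 at 24 h, a log2 fold change of 0.82 (adjusted p = 0.000392) that became -0.14 with library size as the scale. ATP5MC1, one of 3 genes for the same c-ring protein, changed by 1.23 (adjusted p = 0.00319) at 24 h and by 0.34 (adjusted p = 0.121) without 24 h replicate 2.

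ATP5F1E, the smallest subunit of the F1 head, was at 126, 121.1 and 127.6 CPM at 0 h, 205.1, 205.4 and 232.3 at 6 h, 325.4, 248.3 and 252.8 at 12 h and 402.2 and 1031 at 24 h. The 4 groups were separate, and its log2 fold changes were 0.78 (adjusted p = 0.0239), 1.14 (adjusted p = 0.00331) and 2.52 ± 0.29 (adjusted p = 1.6e-05). ATP5MK, a small membrane subunit that helps hold the enzyme in dimers, was at 52.38, 49.18 and 52.23 CPM at 0 h, 97.92, 104 and 105.9 at 6 h, 119.2, 90.05 and 92.54 at 12 h and 155.4 and 394.9 at 24 h. It rose first between 0 h and 6 h, did not differ between 6 h and 12 h beyond the spread, and rose again. The log2 fold changes against 0 h were 1.00 ± 0.26 (adjusted p = 0.00565), 0.97 (adjusted p = 0.00719) and 2.42 ± 0.28 (adjusted p = 1.74e-05). ATP5ME, another membrane subunit, changed by 0.75, 1.06 and 2.25 on the log2 scale, with 61.27% of its exonic bases opposite MYL5. ATP5MG, whose copy ATP5MGL was not tested, was at 24.03, 22.2 and 23.83 CPM at 0 h and 80.65 and 198.5 at 24 h (log2 fold change 2.58 ± 0.29, adjusted p = 1.33e-05).

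Library by library, the 24 h samples differed in the size of the change, here over the 79 genes without isoforms and copies. The median log2 CPM of a complex above its normoxic mean was 0.69 in 24 h replicate 1 and 1.68 in replicate 2 for complex I, 0.16 and 0.83 for II, 1.06 and 1.74 for III, 1.31 and 2.45 for IV and 1.14 and 2.14 for V. Both libraries were above all 0 h libraries for each complex. As a plain share of all counts, with no scaling, complex IV went from 0.110% to 0.116% at 0 h to 0.193% and 0.265% at 24 h. Complex V went from 0.190% to 0.204% to 0.262% and 0.289%, and complex III from 0.0903% to 0.0964% to 0.136% and 0.152%. Complex I held 0.152% to 0.163% of counts at 0 h, 0.142% to 0.153% at 6 h, 0.146% to 0.157% at 12 h and 0.177% and 0.208% at 24 h, so on that scale only the 24 h libraries exceeded normoxia. Complex II fell on that scale, from 0.0239% to 0.0252% to 0.0215% and 0.0179%.

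**Figure D3:**
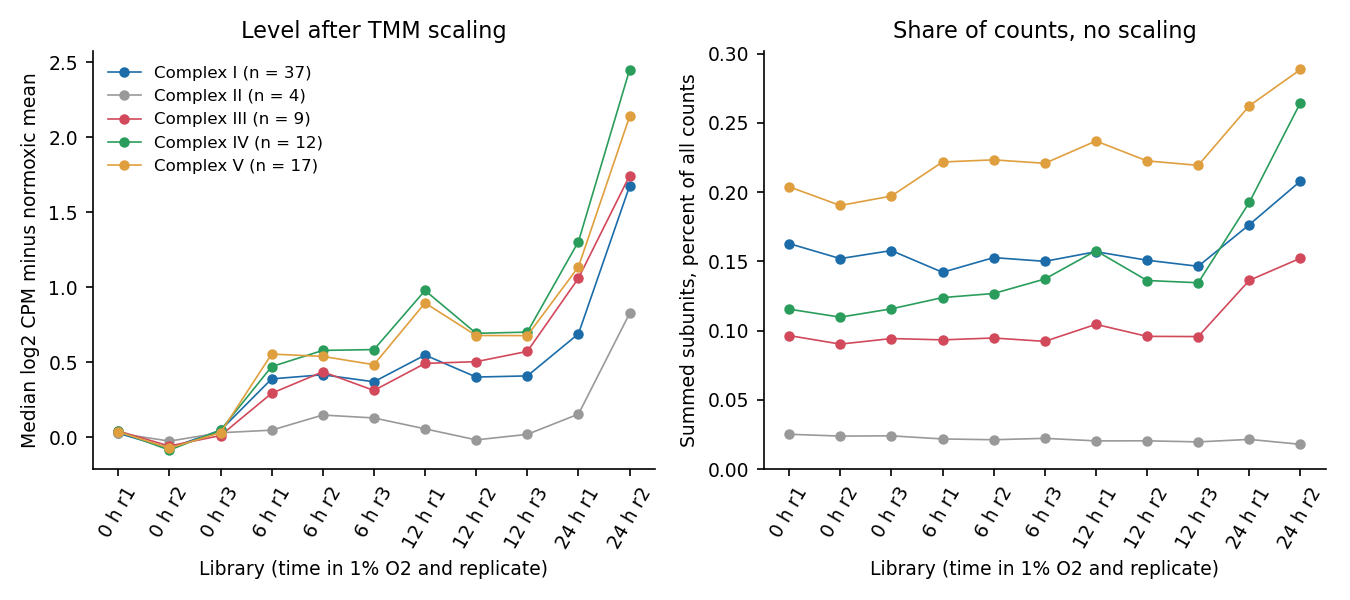
Left, median log2 CPM of the genes of each complex minus the normoxic mean; right, their summed share of all counts in percent with no scaling, in each of the 11 libraries (x axis, hours in 1% O2 and replicate). Both 24 h libraries lie above the others on the left, at 1.31 and 2.45 for complex IV, and on the right complex II ends at 0.0215% and 0.0179%, below its 0 h values.

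The 13 subunits encoded by mitochondrial DNA belong to the same complexes and moved the other way. Of them 10, 7 and 13 were lower at 6, 12 and 24 h and none higher, with median log2 fold changes of -1.16, -0.91 and -3.31. The shares of all genes were 27.7%, 27.1% and 31.3% lower. With library size as the scale 12, 8 and 13 of the 13 subunits were lower and none higher. On that scale 35.7%, 42.3% and 56.6% of all genes were lower. Their share of all counts was 8.74% to 8.85% at 0 h, 3.11% to 4.05% at 6 h, 3.83% to 5.48% at 12 h and 1.07% and 0.264% at 24 h. The count of mitochondrially encoded reads for each nuclear subunit read of complexes I, III, IV and V, a ratio that needs no scaling, was 15.3, 16.1 and 15.5 at 0 h. It was 6.73, 6.78 and 5.17 at 6 h, 6.70, 6.33 and 9.20 at 12 h and 1.39 and 0.289 at 24 h. Every hypoxic library was below every normoxic one, and the 6 h and 12 h libraries overlapped. By complex, the ratio went from between 20.4 and 21.4 at 0 h to 2.12 and 0.466 at 24 h for complex I, from between 4.25 and 4.55 to 0.608 and 0.163 for III, from between 36.6 and 38.9 to 2.71 and 0.449 for IV and from between 4.22 and 4.24 to 0.340 and 0.0810 for V. Among single genes, MT-ND5 of complex I changed by -1.32, -1.28 and -4.10 and MT-CO2 of complex IV by -0.25, 0.25 and -2.19 on the log2 scale. Mitochondrial reads took a larger share of the normoxic libraries, and their part in the scaling of the nuclear genes was not tested.

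**Figure D4:**
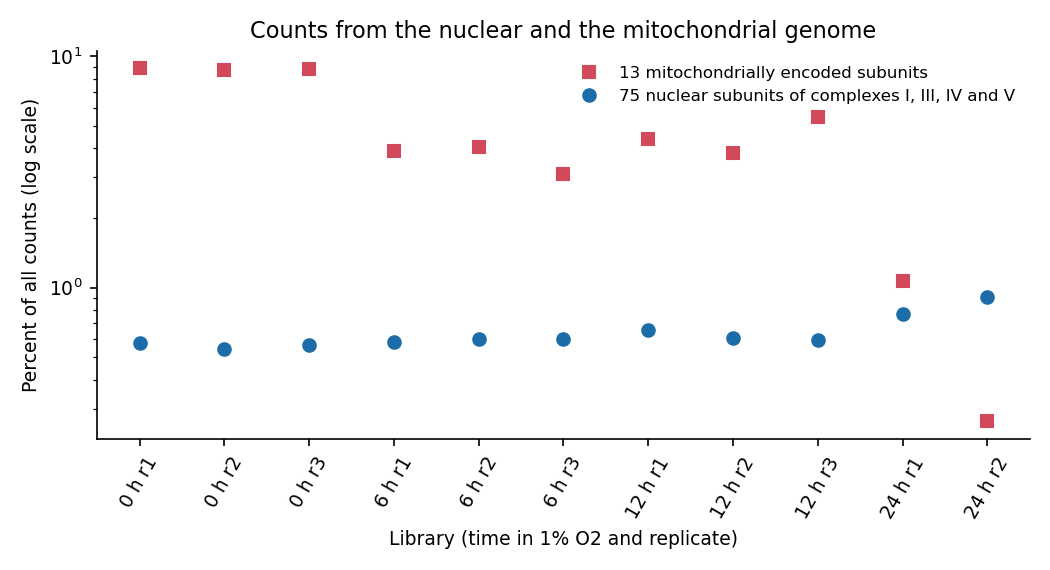
Percent of all counts (log axis) taken by the 13 mitochondrially encoded subunits (squares) and by 75 nuclear subunits of complexes I, III, IV and V (circles) in each of the 11 libraries (x axis). The squares fall from 8.74% to 8.85% at 0 h to 1.07% and 0.264% at 24 h, and in 24 h replicate 2 they lie below the circles.

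The size of the change ran with the length of the coding sequence. Over the 79 subunit genes the Spearman correlation of the log2 fold change with coding length was -0.532, -0.545 and -0.631 at 6, 12 and 24 h. Over all 13802 tested protein-coding genes it was -0.0753, -0.110 and -0.333, and all points share the same libraries. At 24 h the 49 subunits with at most 500 coding bases had a median log2 fold change of 1.85, the 19 with more than 500 and up to 1000 bases 1.29 and the 11 longer ones 0.70. Genes of those length classes over the whole table had medians of 0.928, 0.425 and -0.255. ATP5F1E, with 153 coding bases the shortest, changed by 2.52 and NDUFS1, with 2181 the longest, by -0.75. With an offset for exonic length and GC content, the accessory subunits of complex I and complexes III, IV and V had medians of 1.54, 1.71, 1.91 and 1.79 at 24 h. The core of complex I rose from 0.50 to 0.83. The median of the 82 genes then stood 1.42 above that of all genes, against 1.67 with no offset. The Spearman correlation of the change at 24 h with exonic length was -0.2955. Coding length was not in the offset, so that fit cannot tell what part of the change goes with it. Without 24 h replicate 2, the library whose values ran most with length, the fit with no offset gave lower medians. They were 0.83, 1.06, 1.18 and 1.12 for the accessory subunits of complex I and complexes III, IV and V.

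**Figure D5:**
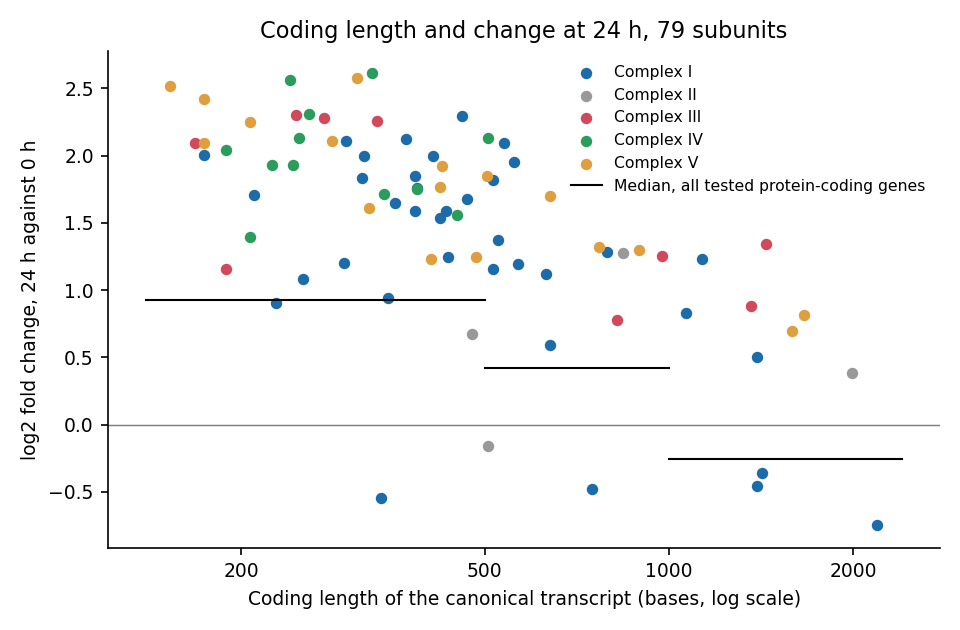
Log2 fold change at 24 h against coding length in bases (log axis) for the 79 subunit genes, coloured by complex, each point 1 gene, with the median of all tested protein-coding genes of 3 length classes as black lines. The shortest gene, ATP5F1E with 153 bases, is at 2.52 and the longest, NDUFS1 with 2181, at -0.75, and the Spearman correlation is -0.631.

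The assembly factors, which build the complexes but are not part of them, were called higher or lower at 6 and 12 h about as often as all genes. Of 55 tested, 12, 16 and 27 were higher and 13, 14 and 9 lower at 6, 12 and 24 h, beside 25.1%, 24.2% and 29.9% of all genes higher and 27.7%, 27.1% and 31.3% lower. Their median log2 fold changes were -0.005, 0.08 and 0.67, the last turning to -0.31 with library size as the scale and to 0.14 without 24 h replicate 2. FOXRED1, an assembly factor of complex I, was at 24.29, 24.58 and 26.91 CPM at 0 h, 6.902, 6.389 and 5.8 at 6 h, 6.596, 7.942 and 7.858 at 12 h and 5.049 and 7.139 at 24 h. Its log2 fold change was -1.99, -1.76 and -2.06 ± 0.20 (adjusted p = 4.69e-06 at 24 h), while NDUFAF2, another factor for complex I, rose by 0.82, 1.13 and 2.38 and TMEM70, which acts on complexes I and V, by 1.65, 0.98 and 2.06. For complex II, SDHAF1 and SDHAF2 rose at all 3 times, by 2.71 and 1.93 at 24 h, and SDHAF4 fell, by 2.15, 1.48 and 0.99 on the log2 scale. For complex III LYRM7, which helps insert the Rieske protein, fell by 0.84, 1.25 and 1.50. For complex IV CMC2 and COA8 rose by 2.30 and 2.35 at 24 h, and COX19 and COX20 fell by 1.17 and 2.07. Of the 4 factors listed for complex V, 0, 1 and 2 were higher and 1, 2 and 0 lower. ATPAF1, a chaperone of the F1 head, fell at 6 and 12 h, by 0.68 and 0.76 on the log2 scale, and TMEM242 was higher at 12 and 24 h, by 0.47 and 0.91, the latter turning to -0.04 with library size as the scale.

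Genes of the HIF response that act on mitochondria were compared beside the subunits. Of 9 tested, 5, 5 and 7 were higher and 1, 1 and 1 lower at 6, 12 and 24 h. Of all genes, 25.1%, 24.2% and 29.9% were higher and 27.7%, 27.1% and 31.3% lower. BNIP3, a receptor for removal of mitochondria, was at 38.89, 42.22 and 40.32 CPM at 0 h, 348.4, 324.3 and 234.6 at 6 h, 296.3, 387.4 and 364.7 at 12 h and 576.4 and 924.8 at 24 h, a log2 fold change of 4.21 ± 0.24 (adjusted p = 3.16e-07) at 24 h. PDK1, which holds back pyruvate entry, rose by 1.33, 1.29 and 2.08, and BNIP3L by 1.13, 1.00 and 1.63. MXI1, which opposes MYC, rose by 1.38, 1.66 and 1.66 and FAM162A by 1.20, 1.36 and 2.36. LONP1, the mitochondrial protease known to degrade COX4I1 protein, was at 122.3, 121.1 and 123.6 CPM at 0 h and 62.51 and 66.87 at 24 h, and it fell by 1.00, 0.82 and 0.92 ± 0.14 (adjusted p = 0.000105 at 24 h) on the log2 scale. HIGD1A and ATP5IF1 were called at 24 h and not earlier, with 1.33 and 1.08, and ISCU was not called at any time. A separate list of 7 HIF target genes was higher in full at each time. It was chosen with earlier results of these data known, so it is no independent check.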

How the data were processed

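RNA of RWPE1 cells was sequenced in 11 libraries. According to the methods, the authors trimmed reads with Trimmomatic 0.39, aligned them to hg38 with STAR and counted them per Ensembl release 99 gene with featureCounts. The deposited values are raw counts, and 0 columns were left unused. The strand setting of the counting and its treatment of reads with several matches are not given in the sources used here. Pseudogenes also carry the names of COX6A1 (7), COX6B1 (7), COX5B (7), ATP5MG (8), ATP5F1A (7), ATP5MC1 (8) and NDUFS5 (6). Of their exonic bases, NDUFS7 has 51.45% and ATP5F1E 23.22% opposite other genes. Their counts may be uncertain in the same way as those of SDHA, COX6C and ATP5ME.

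Positions, lengths and GC content came from GENCODE release 44 (60357 identifiers found), promoters from RefSeq. filterByExpr (minimum count 10, minimum total 15) kept 19981 genes. edgeR's quasi-likelihood fit used TMM and all 11 libraries with time as the only factor, and p-values were Benjamini-Hochberg adjusted over all 19981. The biological coefficient of variation was 19.6%. Standard errors were derived from the F statistic. The offset for length and GC used splines with 4 degrees of freedom.

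Genes named were both members of isoform pairs, the SDH genes, in complexes I, III, IV and V the 3 genes with the highest and the 3 with the lowest mean change against 0 h, the 3 highest and lowest called changes from 12 h to 24 h, and, in lists of assembly factors, electron carriers, regulators, HIF targets and cell markers, the 2 highest and lowest mean changes. Regulators and HIF targets acting on mitochondria were all named. Members and lists were chosen with earlier results of these data known. The ± values are standard errors of the fit and reflect the spread between these libraries. Some items are not reported here.

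The tests were checked on simulated counts. Tests ran in edgeR 4.0.16, DESeq2 1.42.0 and limma 3.58.1 under R 4.3.3. Tables and figures were made with matplotlib 3.10.9, pandas 2.3.3, scipy 1.17.1 and numpy 2.4.6 under Python 3.11.15.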

Additional observations from a re-analysis of the deposited data

Results flagged for a closer look

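The following results were singled out because the change differed between the neighbouring times of hypoxia, by the test of 24 h against 12 h itself. Of 82 subunit genes, 70 were higher at 24 h than at 12 h by edgeR's quasi-likelihood test, and 13 of the 13 mitochondrially encoded subunits were lower. Over all tested genes, 15.1% were higher and 13.3% lower. The log2 fold changes from 12 h to 24 h that were named by rule were 1.69 for NDUFB1, 1.64 for COX7B and 1.56 for NDUFB8 at the upper end of the called genes. At the lower end they were 0.44 for NDUFA10, 0.52 for ATP5F1A and 0.58 for UQCRC2. With 3 and 2 libraries a group, no group had enough libraries for a check of single outlying values.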

How the results depend on the processing

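With library size alone, 5, 15 and 43 subunit genes were higher at 6, 12 and 24 h and 11, 11 and 9 lower, with medians of 0.12, 0.10 and 0.56. Of all genes, 13.6%, 10.6% and 11.1% were then higher and 35.7%, 42.3% and 56.6% lower. From 6 h to 12 h the subunit median was 0.025. From 12 h to 24 h 26 subunit genes were higher and 2 lower (4.24% and 23.1% of all genes), with a median of 0.45. Median-of-ratios scaling and limma-voom left these counts within 1.5 times. With at least 10 counts in every library the median at 6 h was 0.36. With the 2 groups compared alone, 53 were higher at 6 h, 3 from 6 h to 12 h and 0 from 12 h to 24 h. In those fits 32.4%, 4.09% and 0% of all genes were higher. From 6 h to 12 h DESeq2 and the fit with no filter called 1 subunit gene. With the length and GC offset the median at 6 h was 0.51 (0.50 with the replicate block), and 1 gene (0 with the block) was lower at 24 h. NDUFA4L2 at 6 h was -0.70 with library size, and the log2 ratio of COX4I2 to COX4I1 at 0 h and 24 h was -12.77 and -13.85 with 1 count added in place of 0.5.

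With library size alone the direction turned at 12 h for UQCC2 (-0.44), NDUFA10 (-0.083), SDHA (-0.42) and YY1 (-0.40). At 24 h it turned for SDHAF3 (-0.60), UQCC2 (-0.15), ATPAF2 (-0.17), TMEM242 (-0.041), CYCS (-0.068), ETFB (-0.10), NDUFA10 (-0.12), NDUFV1 (-0.49), SDHA (-0.58), SDHD (-0.34), UQCRC2 (-0.049), UQCRFS1 (-0.27), ATP5F1A (-0.14), ATP5F1B (-0.22), GABPB1 (-0.82), NRF1 (-0.28), POLRMT (-0.068), TFAM (-0.90) and YY1 (-0.77), and from 12 h to 24 h for NDUFA10 (-0.032). The cause of these changes was not tested.

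Leaving out each library in turn gave 11 to 50 higher and 4 to 8 lower at 6 h, 29 to 58 higher at 12 h, 0 to 17 higher and 0 to 1 lower from 6 h to 12 h, and 32 to 75 higher and 0 to 1 lower from 12 h to 24 h. Without 24 h replicate 1 and 2, the subunit median from 6 h to 12 h was 0.17 and 0.19. From 12 h to 24 h it was then 1.36 and 0.44. With any single library left out, NDUFA4L2 at 24 h ran from 0.13 to 0.89 and UQCRFS1 from -0.0018 to 1.23. Without either 24 h library the other is assumed to vary like the rest. With the replicate block 24, 46 and 71 subunit genes were higher and 4, 5 and 2 lower at 6, 12 and 24 h. Of all genes, 23.9%, 23.2% and 27.9% were then higher and 26.8%, 25.9% and 29.8% lower. From 12 h to 24 h 59 subunit genes were higher, where 11.5% of all genes were. Deviations from the group mean had r from -0.156 to 0.207 between libraries with the same number (2 of 15 pairs over 0.1). Between libraries with other numbers r ran from -0.271 to 0.283 (3 of 30 over 0.1). Deviations within groups of 3 or 2 libraries are tied to each other, so whether the numbers pair the libraries cannot be decided from them. COX4I2 had at most 2 counts, which limits what its values can show.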

Other observations

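The regulators of mitochondrial gene transcription are given here beside the subunits. Of 12 tested, 7, 4 and 3 were higher and 3, 4 and 3 lower at 6, 12 and 24 h, where 25.1%, 24.2% and 29.9% of all genes were higher and 27.7%, 27.1% and 31.3% lower. PPARGC1A, a coactivator that drives mitochondrial biogenesis, was at 1.502, 2.665 and 2.164 CPM at 0 h, 0.1367, 0.06486 and 0.2464 at 6 h, 0.5074, 1.363 and 0.8909 at 12 h and 1.07 and 0.2725 at 24 h. All hypoxic libraries were below the normoxic ones, with log2 fold changes of -3.67 ± 0.53, -1.18 and -1.59 by edgeR's quasi-likelihood test (adjusted p = 0.00012, 0.0356 and 0.0225). Its relatives PPARGC1B and PPRC1 were higher at 6 h (0.57 and 0.73) and lower at 24 h (-0.83 and -1.02). The factors of mitochondrial transcription differed from each other. TFB2M, which opens the mitochondrial promoters, was higher at all 3 times (1.60, 1.01 and 1.38), TFAM, which packs mitochondrial DNA, was higher at 6 h (0.97), and TFB1M, a ribosomal RNA methyltransferase, was lower at 6 and 12 h (-1.30 and -0.76). POLRMT, the mitochondrial RNA polymerase, was higher at 12 and 24 h (0.72 and 0.94), the latter turning with library size as the scale. Among nuclear factors whose motifs were searched, NRF1 was higher at all 3 times (0.78, 0.77 and 0.60, the last turning with library size), YY1 at 6 h (0.82) and GABPB1 at 6 h (0.54), whereas GABPA was lower at 12 h (-0.55). ESRRA, an orphan receptor, was lower at 6 and 12 h (-0.71 and -0.53).

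Of 8 tested electron carriers and side entries to the chain, 1, 0 and 4 were higher and 2, 1 and 3 lower at 6, 12 and 24 h, against the same shares of all genes. CYCS, cytochrome c, was at 105, 89.16 and 99.45 CPM at 0 h, 197.3, 179 and 144.7 at 6 h, 113.8, 115 and 106 at 12 h and 131.5 and 245.9 at 24 h. It was higher at 6 h (log2 fold change 0.83) and 24 h (0.95, turning to -0.07 with library size) and not at 12 h (0.19). DHODH, the pyrimidine synthesis enzyme that feeds electrons to ubiquinone, was lower at all 3 times (-0.75, -0.83 and -1.05). GPD2, the mitochondrial glycerol-phosphate dehydrogenase, was lower at 6 and 24 h (-0.34 and -0.74), and ETFB, of the flavoprotein that takes electrons from fatty acid oxidation, was higher at 24 h (0.95, turning to -0.10 with library size).

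Other assembly factors named by rule were NUBPL (-0.41, -0.51 and -0.95) and UQCC1 (-0.69, -0.39 and -0.53). Of 8 tested prostate epithelial markers, 5, 6 and 5 were higher and 1, 1 and 2 lower. Of 4 tested muscle and pericyte markers, 1, 1 and 1 were higher and 1, 2 and 1 lower. Over all genes, 25.1%, 24.2% and 29.9% were higher and 27.7%, 27.1% and 31.3% lower at 6, 12 and 24 h. The single tested fibroblast marker was lower at 12 and 24 h and the single tested leukocyte or endothelial marker at each time.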
